A study of Rattus norvegicus with 6 samples.

Results

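The genes described here are those of retinoid synthesis, storage and binding, chosen by symbol. They comprise the retinaldehyde dehydrogenases Aldh1a1, Aldh1a2 and Aldh1a3, the retinol and retinal enzymes Rdh10 and Dhrs3, the retinoic acid binding proteins Crabp1 and Crabp2, the serum retinol carrier Rbp4 and the uptake receptor Stra6. All 9 symbols were found, each with 1 identifier, among the 18923 genes of the count tables, and 8 of the 9 passed the filter on low counts. Primary chondrocytes of wild-type female Sprague-Dawley rats, taken within a day of birth and used at passage 1 or 2, were cultured for 24 h in high-glucose DMEM with 10% FBS and penicillin-streptomycin (CON). The RA group received the same medium with 1 µM all-trans retinoic acid (RA) for 24 h, and each group had 3 samples. No vehicle is named for CON, and the number of animals behind a sample is not given, so p-values measure the spread between these cultures only.

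Cells make RA from vitamin A in a short chain of reactions. Stra6 takes up retinol that Rbp4 carries in serum, Rdh10 oxidizes retinol to retinal and Dhrs3 reduces retinal back to retinol, and the Aldh1a enzymes oxidize retinal irreversibly to RA. In the cytoplasm, Crabp2 carries RA to its nuclear receptors and Crabp1 is associated with its breakdown by Cyp26 enzymes. In the developing limb, cartilage forms where RA signaling is low, and excess RA disturbs skeletal patterning.

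Total counts were 30170909 to 38007486 per sample in CON and 29370025 to 30952882 in RA. CON sample 1 stood apart from the other CON samples, with a chi-square per gene of 39.4 and 63.5 against them, compared with 6.40 to 8.13 for every other pair within a group. A differentially expressed gene (DEG) had a Benjamini-Hochberg adjusted p below 0.05 over all 13438 genes in edgeR's quasi-likelihood test and a log2 fold change beyond 0.58, which 4.96% of tested genes met, 2.67% higher and 2.29% lower in RA. Of 10 chondrocyte markers, 9 were DEGs and lower in RA, and the summed level of the 10 was 6800.0 to 8923 FPKM in CON and 4279.8 to 4618 FPKM in RA. The summed level of 6 fibroblast and perichondrium markers, none of them a DEG, was 1303 to 1496 FPKM in CON and 1444 to 1479 FPKM in RA. The 4 endothelial and 4 adipocyte markers measured each stayed below 1 FPKM in every sample, with Emcn at 0, and only 1 endothelial marker was tested. Of the 6 macrophage markers 3 were tested, none of them a DEG, and the 6 summed to 13.2 to 14.7 FPKM in CON and 16.1 to 17.4 in RA. The 5 skeletal muscle markers, of which 2 were tested, summed to 4.72 to 6.00 and 6.96 to 7.87 FPKM, with Myod1 a DEG and higher in RA. In a bulk sample, fewer cells of a type and less RNA per cell cannot be told apart, and the part of these marker levels in the results below was not tested.

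Of the 8 tested genes, Dhrs3 alone was a DEG, and it was higher in RA. Of all tested genes, 2.67% were DEGs and higher in RA. Rdh10 and Rbp4 were lower in RA at an adjusted p below 0.05 without reaching the fold threshold. By adjusted p alone, 3 of the 8 genes were therefore called, 1 higher and 2 lower, compared with 9.82% of all tested genes, 5.31% higher and 4.5% lower. With an unadjusted p below 0.05 and the fold threshold, Dhrs3 was again the only one of the 8 called, compared with 7.57% of all tested genes. The FPKM ranges of CON and RA did not overlap for 5 of the 8 genes, with Dhrs3 and Crabp2 higher and Rdh10, Rbp4 and Aldh1a3 lower in RA, and 32.2% of all tested genes had such ranges, 18.9% higher and 13.3% lower in RA. Over the 8 genes the median log2 fold change was -0.33, and it was -0.01 over all tested genes.

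**Figure D1:**
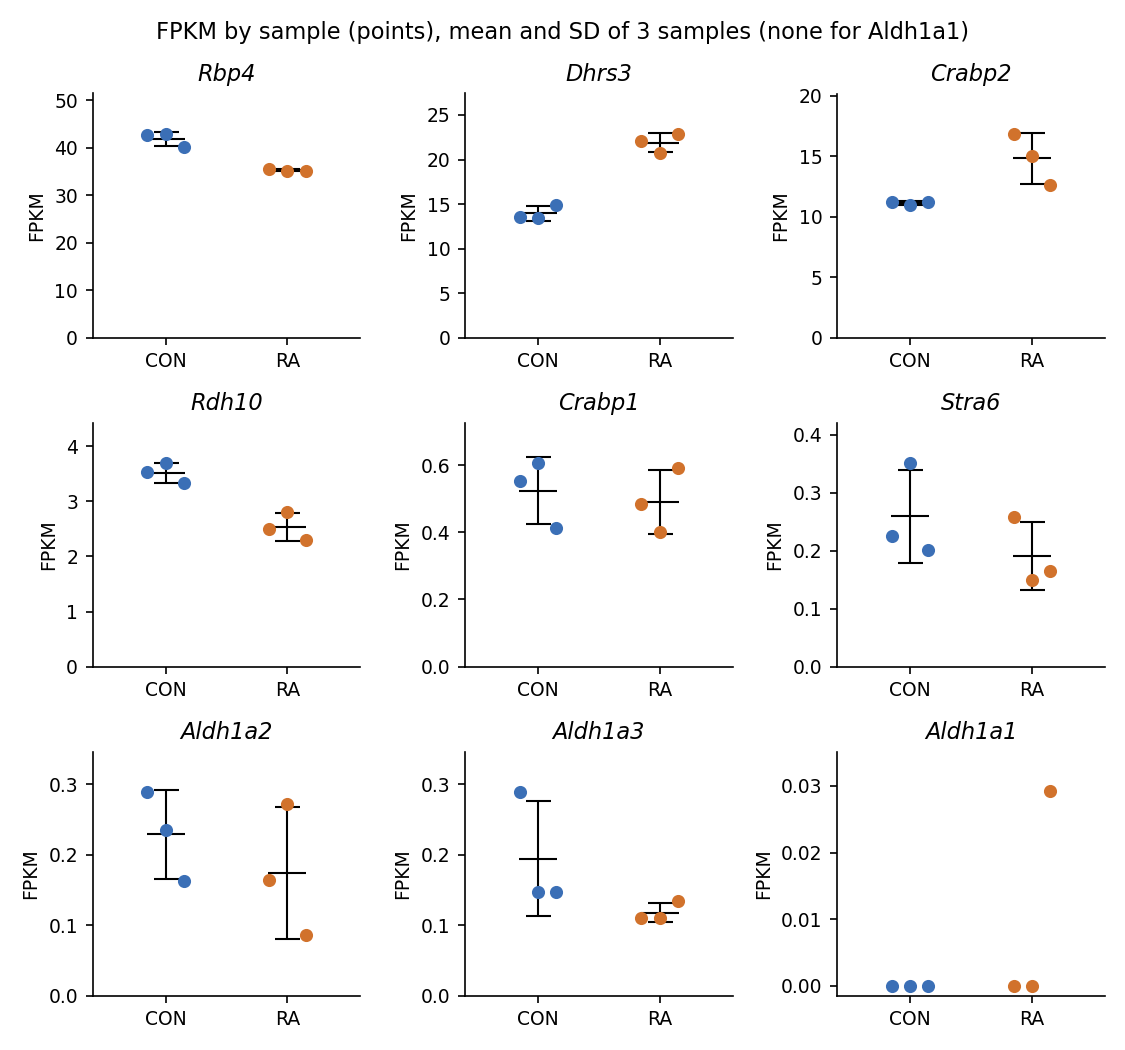
FPKM of each of the 9 genes in the 3 CON samples (blue) and 3 RA samples (orange), with a separate linear axis per gene and black bars for the mean and SD of 3 samples, except for Aldh1a1. The groups separate for Rbp4, Dhrs3, Crabp2, Rdh10 and Aldh1a3, and the CON mean runs from 41.8 FPKM for Rbp4 to 0.194 FPKM for Aldh1a3, with Aldh1a1 at 0 in every CON sample.

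The genes differed widely in level. FPKM scales a count by gene length and by the sample's summed counts, so genes can be set side by side. In CON the order was Rbp4, Dhrs3, Crabp2, Rdh10, Crabp1, Stra6, Aldh1a2, Aldh1a3 and Aldh1a1, and it was the same in RA. Ranges of neighbors in that order did not overlap in either group, except between Stra6 and Aldh1a2 and between Aldh1a2 and Aldh1a3, which overlapped in both. Rbp4 ranked 1829th of the 13438 tested genes by mean FPKM in CON, Dhrs3 4941st, Crabp2 5677th and Rdh10 9208th. Crabp1, Stra6, Aldh1a2 and Aldh1a3 ranked between 12078th and 12978th, so their counts of 6 to 30 per sample limit what could be detected.

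Dhrs3 (ENSRNOG00000015736), the retinal reductase that returns retinal to retinol, was the second most abundant of the 9. Its level was 13.6, 13.4 and 14.9 FPKM in CON samples 1, 2 and 3 and 22.1, 20.7 and 22.8 FPKM in RA samples 1, 2 and 3. Every RA sample thus lay above every CON sample, by more than the spread within either group. The mean went from 14.0 ± 0.829 to 21.9 ± 1.07 FPKM (SD, n = 3 each). Dhrs3 rose 1.55-fold, or by 0.63 on the log2 scale with a standard error of 0.0765, and edgeR gave an adjusted p of 0.00143. The 95% interval of the log2 fold change, 0.46 to 0.81, spans the cutoff of 0.58. Leaving out single samples gave values between 0.60 and 0.69, and Dhrs3 was a DEG in all 6 of these fits and in all 17 fits run with the 0.58 threshold. Without CON sample 1 the log2 fold change was 0.61.

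Among all tested genes, the 3 whose log2 CPM followed Dhrs3 most closely over the 6 samples were Serinc2, Cdca4 and Arhgap22, each with a Pearson r of 0.997 to 0.998. This is a description over 6 samples that fall into 2 groups, and their log2 fold changes were 1.24, 0.20 and 1.34.

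Because Dhrs3 rose with RA, the bases before its start were searched for RA response elements. These are binding sites of RA receptors, built of repeated 6-base cores with the letters AGGTCA or, where bases differ, the letters AGTTCA, or the letters GGGTCA, or else the letters GGTTCA. RefSeq promoter sequences on the rat assembly GRCr8, from 250 bases before to 50 after the gene start, were at hand for 8 of the 9 genes, Rdh10 being the exception. The GRCr8 positions given here apply to these sequences and not to the count tables, for which the submitters' notes name Rnor_6.0. Both strands were read for single cores and for direct repeats of 2 cores spaced by 1, 2 or 5 bases, and a repeat also counts as single cores. No direct repeat was found in any of the 8 promoters, while 0.382% of 33469 promoters hold a repeat spaced by 5 bases, 0.233% one spaced by 1 base and 0.17% one spaced by 2 bases. A single core was found in Stra6 and Aldh1a1 only, and 44.4% of all promoters hold one. The sequence below is that of the gene that rose, at chr5:162031603-162031852 on the plus strand, printed in lower case since it holds no match.
Dhrs3: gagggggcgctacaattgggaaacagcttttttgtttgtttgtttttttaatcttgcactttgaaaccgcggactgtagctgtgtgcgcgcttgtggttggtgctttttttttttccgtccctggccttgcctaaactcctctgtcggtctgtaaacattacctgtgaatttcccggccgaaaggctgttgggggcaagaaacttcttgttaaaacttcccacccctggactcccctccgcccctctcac

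Of the 7 DEGs of the other retinoid lists given below, 6 had a promoter sequence, Lpl being the exception. Among these 6, the RA hydroxylase gene Cyp26a1 and the receptor gene Rarb each hold a direct repeat spaced by 5 bases in the same window, and 4 hold a single core, namely these and the dehydrogenase genes Adh7 and Dhrs9. They are printed to show what the search finds, followed by the single cores of Stra6 and Aldh1a1, with the cores in capitals. The Cyp26a1 repeat lies at -92 to -76 from the gene start and reads on the opposite strand, and that of Rarb lies at 25 to 41. The Stra6 core lies at -132 to -127, and that of Aldh1a1 at -65 to -60 on the opposite strand. The 4 sequences are from chr1:244883724-244883753, chr15:11336410-11336439, chr8:67444613-67444642 and chr1:227537543-227537572, all on the plus strand. A match is a run of letters and not evidence of binding, and the absence of a match says only that these letters are not in this window.
Cyp26a1: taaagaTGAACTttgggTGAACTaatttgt
Rarb: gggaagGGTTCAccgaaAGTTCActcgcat
Stra6: gcaggcaggcgaAGTTCAtcttcttgcagg
Aldh1a1: ccgatatgcaaaTGACCCttagtgcaggca

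Rdh10 (ENSRNOG00000006681), which encodes the retinol dehydrogenase that supplies retinal for RA synthesis, lay in the opposite direction to Dhrs3. Its level was 3.54, 3.69 and 3.32 FPKM in the CON samples and 2.49, 2.81 and 2.29 FPKM in the RA samples. All RA samples were below all CON samples. Means were 3.52 ± 0.185 FPKM for CON and 2.53 ± 0.26 FPKM for RA (SD, n = 3 each), and the log2 fold change was -0.49 (standard error 0.118, 95% interval -0.76 to -0.22, adjusted p = 0.0362, edgeR). Rdh10 was not a DEG in any fit, its values lying between -0.57 and -0.36. With each sample left out, its adjusted p from edgeR ran from 0.0217 to 0.158 and was below 0.05 only without CON sample 1 (log2 fold change -0.49). It was above 0.05 without CON sample 2 or 3 or any of the RA samples. On all 6 samples it was also above 0.05 in limma on log2(FPKM + 0.1), at 0.0516 (-0.46), and on log2(FPKM + 0.01), at 0.0519 (-0.48).

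Since Rdh10 and Dhrs3 catalyze opposite reactions, their ratio was taken within each sample. The FPKM of Dhrs3 was 3.83, 3.64 and 4.49 times that of Rdh10 in the CON samples and 8.85, 7.38 and 9.97 times in the RA samples. The ratio was therefore higher in every RA sample, with means of 3.99 ± 0.447 and 8.73 ± 1.3 (SD, n = 3 each). Taken from the mean log2 ratios, the difference was 2.18-fold. The separation was fixed in advance, since the FPKM ranges of both genes did not overlap and lay in opposite directions. The ratio and the test below therefore restate the results of the separate genes. The exact two-sided permutation test gave p = 0.1, the smallest it can give with 3 samples against 3 (adjusted p = 0.4 over 4 ratios). With each sample left out the log2 difference lay between 1.02 and 1.24. These are ratios of RNA levels and not of enzyme activity.

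**Figure D2:**
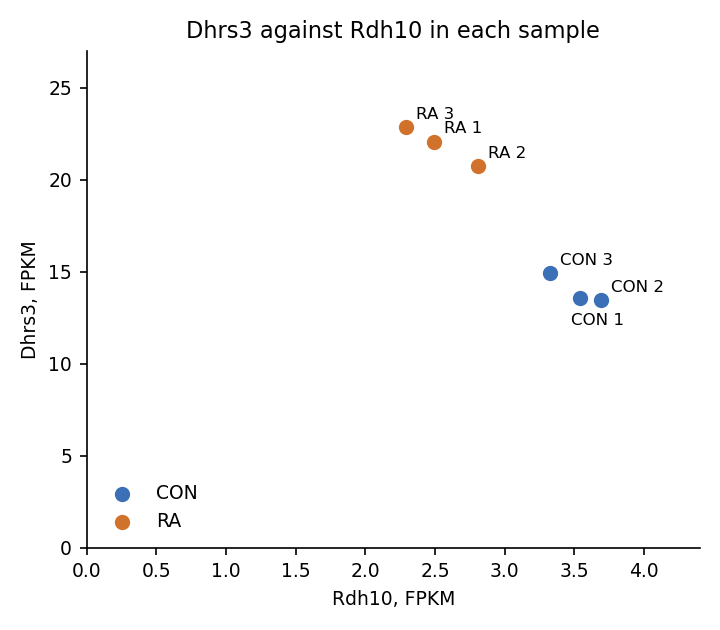
FPKM of Dhrs3 (vertical axis) against FPKM of Rdh10 (horizontal axis) in each of the 6 samples, CON in blue and RA in orange, both axes starting at 0. The RA samples lie at 20.7 to 22.8 FPKM of Dhrs3 and 2.29 to 2.81 FPKM of Rdh10, and the CON samples at 13.4 to 14.9 and 3.32 to 3.69.

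The retinaldehyde dehydrogenases, which carry out the last step to RA, were the 3 lowest of the 9 genes in both groups, each below 0.3 FPKM in every sample. Aldh1a2 (ENSRNOG00000055049), the main RA-producing enzyme of embryonic mesenchyme, had 0.289, 0.235 and 0.163 FPKM in CON and 0.164, 0.272 and 0.0859 FPKM in RA, from counts of 6 to 20. The groups overlapped, and the log2 fold change was -0.40 with a 95% interval of -1.45 to 0.65 (adjusted p = 0.64, edgeR). It ranged from -0.87 without RA sample 2 to -0.07 without RA sample 3.

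Aldh1a3 (ENSRNOG00000052070), a related enzyme, had 0.289, 0.147 and 0.148 FPKM in CON and 0.109, 0.111 and 0.134 FPKM in RA. The RA samples lay below the CON samples, of which CON sample 1 was the highest. Counts were 30, 15 and 19 in CON and 11, 11 and 14 in RA, so CON sample 2 and RA sample 3 were separated narrowly. The log2 fold change was -0.72 with a 95% interval of -1.59 to 0.15 (adjusted p = 0.298, edgeR), and -0.33 without CON sample 1. Although this is the largest value of the 8 in size, it did not pass the test at these counts.

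Aldh1a1 (ENSRNOG00000017619) had no count in the CON samples or in RA samples 1 and 2, and 2 counts in RA sample 3. A count of 0 allows up to 3 counts, or 0.0358 to 0.0463 FPKM at these depths, counting error only, so no fold is given. Its near-identical rat paralog Aldh1a7 had 0 to 7 counts, and how shared reads were assigned between them is not given in the sources used here. The summed level of the 3 Aldh1a genes averaged 0.423 FPKM in CON, with an SD of 0.138, and 0.302 FPKM in RA, with an SD of 0.0709. The groups overlapped, at 0.577, 0.382 and 0.311 FPKM in CON and 0.274, 0.382 and 0.249 FPKM in RA, and CON sample 1 was the highest. The ratio of Aldh1a2 to the other two had means of 1.23 for CON (SD 0.32) and 1.49 for RA (SD 0.964), with overlapping ranges (exact permutation p = 1, adjusted p = 1).

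The intracellular RA carriers differed in level, and neither was a DEG. Crabp2 (ENSRNOG00000022101), which delivers RA to nuclear receptors, had 11.2, 11.0 and 11.2 FPKM in CON and 16.8, 15 and 12.7 FPKM in RA. Each RA sample lay above the CON samples, and the RA samples were spread more widely than the CON samples, with SDs of 2.09 and 0.145 FPKM (n = 3 each). The log2 fold change was 0.40 (standard error 0.123, 95% interval 0.12 to 0.68), and the adjusted p of 0.0859 from edgeR did not pass the threshold. Over all 17 fits it was below 0.05 in DESeq2 only, at 0.0455, with values from 0.31 without RA sample 1 to 0.50 without RA sample 3.

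Crabp1 (ENSRNOG00000023633), the carrier tied to RA breakdown, had 0.553, 0.606 and 0.412 FPKM in CON and 0.484, 0.400 and 0.590 FPKM in RA, from 9 to 14 counts per sample. The groups overlapped, and the log2 fold change was -0.09 with a 95% interval of -0.90 to 0.73 (adjusted p = 0.907, edgeR). The interval reaches past the fold threshold on both sides, so a change of that size in either direction is not excluded. The sign turned without CON sample 2 or RA sample 2. Within a sample, Crabp2 was 21.8 ± 4.74 times Crabp1 for CON and 31.2 ± 8.6 times for RA (SD, n = 3 each), with overlapping ranges and an exact permutation p = 0.2 (adjusted p = 0.4). The RA minus CON difference of this log2 ratio was 0.50, and it ran from 0.34 without RA sample 2 to 0.75 without RA sample 3.

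Rbp4 (ENSRNOG00000015518), the carrier of retinol in serum, was the most abundant of the 9. Liver and adipose tissue are its best known sources. Its level was 42.6, 42.9 and 40.1 FPKM in CON and 35.6, 35.1 and 35.1 FPKM in RA, so that all RA samples lay below all CON samples. Means were 41.8 ± 1.54 FPKM for CON and 35.3 ± 0.261 FPKM for RA (SD, n = 3 each). The log2 fold change was small, -0.26 (standard error 0.0608, 95% interval -0.40 to -0.12, adjusted p = 0.0319, edgeR), and its whole interval lay short of the fold threshold. With each sample left out the value held between -0.28 and -0.25, and the adjusted p ran from 0.00954 to 0.154, below 0.05 only without CON sample 1 (log2 fold change -0.25) or CON sample 3 (-0.28). With no filter on low counts the edgeR adjusted p of Rbp4 was 0.0533, at a log2 fold change of -0.26.

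Markers of the tissues known for Rbp4 were low in the same samples. The adipocyte markers Adipoq, Plin1, Cidec and Lep summed to at most 0.175 FPKM in any sample. Of 5 hepatocyte markers listed, 3 were measured. Of these, Cyp2e1 had no count in any sample, Apoa1 stayed below 1 FPKM and Serpina1, also made by other cells, was a DEG and higher in RA. Together these 3 summed to 1.26 to 1.46 FPKM in CON and 2.81 to 3.74 FPKM in RA, while Rbp4 was lower in RA. Their part in the Rbp4 values was not tested, and the hepatocyte markers Alb and Ttr were not analysed here.

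Stra6 (ENSRNOG00000008312), the membrane receptor for retinol bound to Rbp4, had 0.226, 0.351 and 0.202 FPKM in CON and 0.258, 0.149 and 0.165 FPKM in RA. The groups overlapped, and counts were 12 to 29 per sample. Its log2 fold change was -0.44 with a 95% interval of -1.27 to 0.38 (adjusted p = 0.495, edgeR), and lay between -0.71 without RA sample 1 and -0.18 without CON sample 2. The FPKM of Stra6 was 0.00617 ± 0.00175 times that of Rbp4 for CON and 0.0054 ± 0.00162 times for RA (SD, n = 3 each), which overlapped (exact permutation p = 0.5, adjusted p = 0.667).

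**Figure D3:**
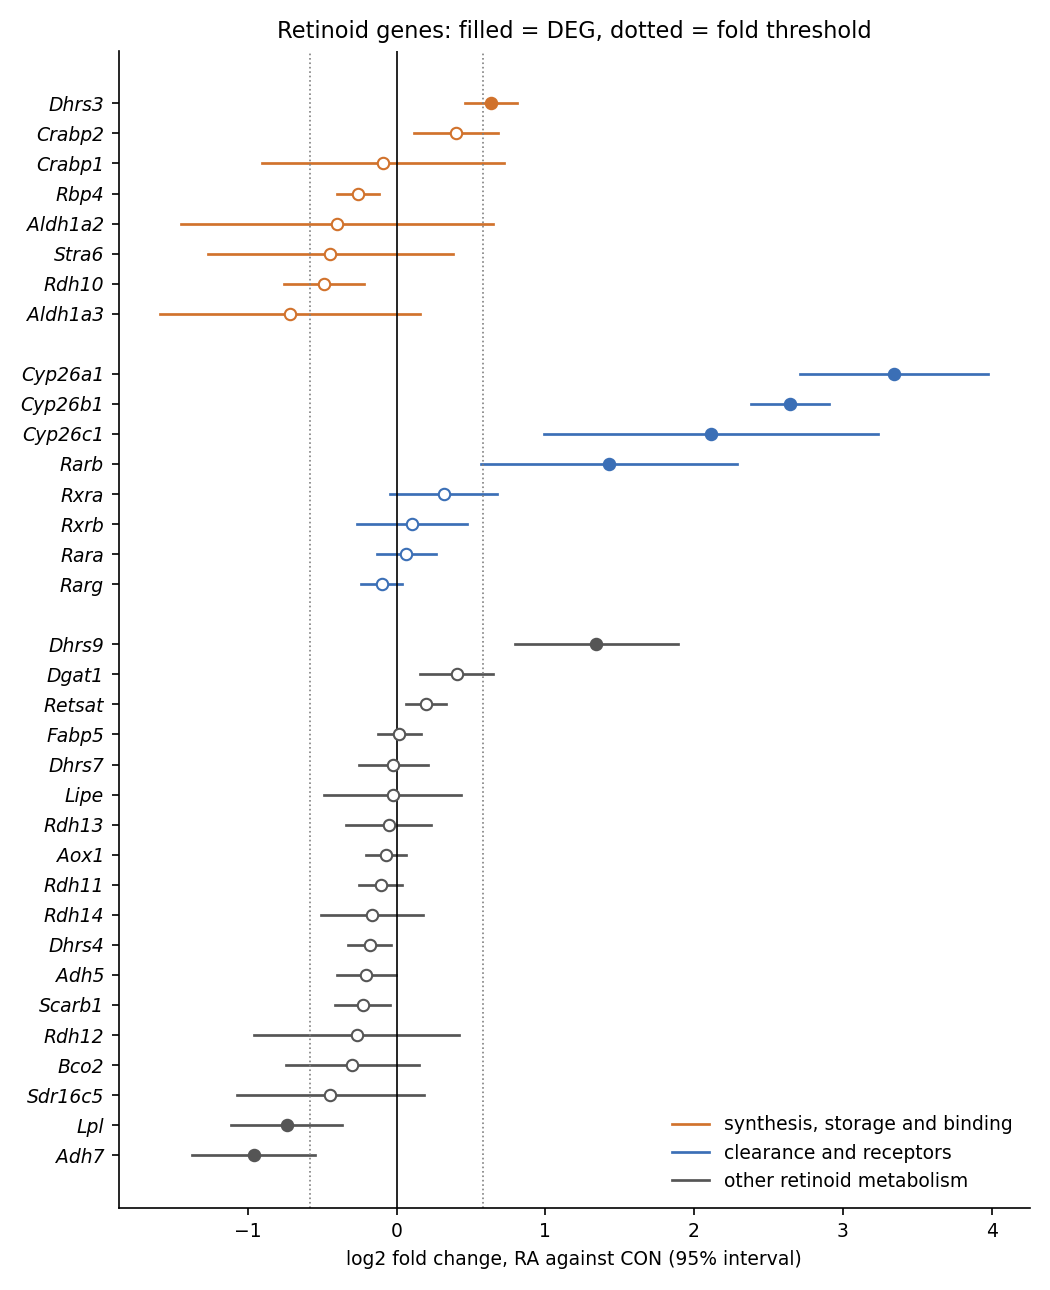
Log2 fold change of RA against CON (horizontal axis) with its 95% interval from edgeR for the 8 tested genes of synthesis, storage and binding (orange), 8 clearance and receptor genes (blue) and 18 other retinoid metabolism genes (grey). Filled points are DEGs and dotted lines mark 0.58 in either direction. Dhrs3 at 0.63 is the only filled orange point, while the 3 Cyp26 genes lie between 2.12 and 3.35.

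Genes of RA breakdown and reception were set beside these. Cyp26a1, Cyp26b1 and Cyp26c1, the hydroxylases that inactivate RA, were all DEGs and higher in RA, as was Rarb, a receptor whose gene RA induces. These were 4 of 8 tested genes, compared with 2.67% of all tested genes called upward. Cyp26b1 was 1.35, 1.71 and 1.46 FPKM in CON and 9.51, 8.61 and 10.4 in RA, which is 2.65 on the log2 scale (SE 0.115). Cyp26a1 was 0.562, 0.240 and 0.366 FPKM in CON and 4.65, 3.47 and 3.92 in RA, which is 3.35 on the log2 scale (SE 0.276). Both were DEGs in all 6 fits that left out 1 sample. Cyp26c1, at 2.12, was a DEG in only 2 of them, when CON sample 1 (1.81) or CON sample 2 (2.71) was left out, and was not called without CON sample 3 (1.97) or RA sample 1 (2.33), 2 (2.22) or 3 (1.73). Rarb, at 1.43, was a DEG only without CON sample 1 (1.85), with log2 fold changes of 1.12 to 1.54 in the other 5 fits, and over all 16 fits that tested it Rarb was a DEG in 6. The receptors Rara, Rarg, Rxra and Rxrb had log2 fold changes between -0.10 and 0.32 and were not DEGs.

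A wider list of retinoid metabolism genes was also examined, of which 27 of 34 were matched and 18 tested. Dhrs9 was a DEG and higher in RA, Adh7 and Lpl were DEGs and lower, and the other 15 were not called. This 1 upward and these 2 downward calls among 18 compare with 2.67% and 2.29% of all tested genes, and the median log2 fold change of the 18 was -0.14.

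Dhrs9 (ENSRNOG00000058568), a short-chain dehydrogenase that can oxidize retinol, had 0.198, 0.210 and 0.301 FPKM in CON and 0.696, 0.58 and 0.558 in RA. All RA samples lay above all CON samples. It rose by 1.34 on the log2 scale (SE 0.24) at an edgeR adjusted p of 0.00956, a call lost without RA sample 1 (1.25) and in limma on log2(FPKM + 1), where the value was 0.38. Adh7 (ENSRNOG00000032959), a class IV alcohol dehydrogenase active on retinol, had 3.20, 3.39 and 2.25 FPKM in CON and 1.63, 1.48 and 1.45 in RA, so that each RA sample was the lower. Its log2 fold change was -0.96 (SE 0.181) at an edgeR adjusted p of 0.0121, a call lost when CON sample 2 (-0.85), RA sample 2 (-0.95) or RA sample 3 (-0.93) was left out.

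Lpl, the lipase that releases retinyl esters from lipoproteins, had 1.97, 1.74 and 1.48 FPKM in CON and 1.14, 0.890 and 1.10 in RA. The log2 fold change was -0.74 (SE 0.162) at an edgeR adjusted p of 0.0238. It was a DEG without CON sample 1 (-0.64) or CON sample 3 (-0.83) and not without CON sample 2 (-0.74) or RA sample 1 (-0.80), 2 (-0.64) or 3 (-0.78). The 6 most abundant genes of the list were not DEGs. Fabp5, a fatty acid binding protein that also binds RA, had a mean of 299.9 FPKM in CON and 306.7 in RA, which is 0.02 on the log2 scale with a 95% interval of -0.12 to 0.16. Scarb1, Retsat, Dhrs4, Dgat1 and Aox1 had values of -0.23, 0.20, -0.18, 0.40 and -0.07. Dgat1, which can esterify retinol, had an edgeR adjusted p of 0.0507, which was below 0.05 in 6 of 17 fits, and its log2 fold change stayed below 0.58 in all 17.

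**Figure D4:**
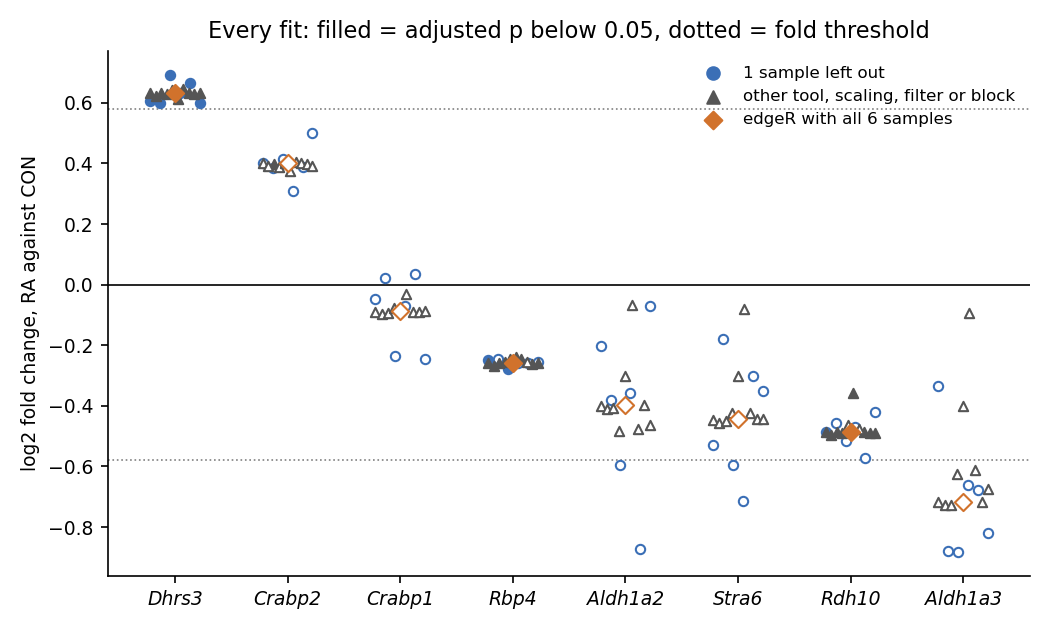
Log2 fold change of RA against CON (vertical axis) for each of the 8 tested genes under every fit, with diamonds for edgeR on all 6 samples, circles for fits without 1 sample and triangles for other tools, scalings, filters or the replicate block. Filled symbols have an adjusted p below 0.05 and dotted lines mark 0.58 in either direction. Dhrs3 is filled and above 0.58 in all 17 fits, while Rdh10 is filled in 10 of 17 and Rbp4 in 12 of 17.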

How the data were processed

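Poly(A) RNA of 3 CON and 3 RA cultures was sequenced after a library kit that does not mark strand, so overlapping and antisense genes cannot be told apart. The submitters' processing notes name HISAT2, HTSeq 0.13.5 and Rnor_6.0, without their order. The deposited files hold raw counts per gene, and FPKM values that the authors scaled by gene length and by the total count of each sample.

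Counts were tested with edgeR 4.0.16 (R 4.3.3; TMM, filterByExpr with a minimum count of 10, quasi-likelihood test) on the 6 samples without covariates, with adjusted p over 13438 of 18923 genes. The script was tested on simulated data. A count of 0 was given a floor of 3 counts, and intervals of counts and floors cover counting error only. FPKM was used for levels, and 4 FPKM ratios within samples were compared by exact two-sided permutation tests. The labels give no batch. Alternatives were DESeq2 1.42.0, limma 3.58.1 with pseudocounts of 0.01, 0.1 and 1 or voom, other scalings, filters and thresholds, the replicate block and leaving out each sample.

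The members and the lists were chosen with earlier results of these data known. Named are all 9 members, the called genes of the other lists, the 6 most abundant other metabolism genes, and the 3 genes most like a called member. The receptors that were not called, and Lrat, Rbp2, Rbp7 and Aldh1a7, fall outside this rule and were named after their values were seen. Promoters came from RefSeq on GRCr8. A further gene of the pathway was left out of the lists and is not reported here.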

Additional observations from a re-analysis of the deposited data

How the results depend on the processing

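Of 13438 genes, 667 were DEGs, against 434 with limma on log2(FPKM + 1), 1319 with no fold threshold, 1017 with an unadjusted p, and 480 to 755 with each sample left out. Dhrs3 was the only DEG of the synthesis, storage and binding genes in every fit with the fold threshold, each left-out sample included (1 to 1), and without that threshold there were 3 (Dhrs3, Rbp4 and Rdh10). Among the other retinoid metabolism genes, limma on log2(FPKM + 1) gave 1 DEG and the filter on FPKM of at least 1 gave 2, in place of 3, and among the clearance and receptor genes both gave 2 in place of 4. Rarb alone was lost there with upper quartile scaling (log2 fold change 1.42, adjusted p 0.0507, edgeR) and with limma on log2(FPKM + 0.1) (1.16, adjusted p 0.053) and log2(FPKM + 0.01) (1.47, adjusted p 0.0636), which left 3. With each sample left out, the first list gave 1 to 3 (1 without CON sample 2 or any of the RA samples) and the second 2 to 4. Under the pseudocount of 1, which shrinks low genes, the lost calls had log2 values of 0.38 for Dhrs9, -0.42 for Lpl, 0.57 for Cyp26c1 and 0.40 for Rarb, and the filter removed Dhrs9, Cyp26c1 and Rarb from the test. The RA minus CON difference in the log2 ratio of Aldh1a2 to Aldh1a1 plus Aldh1a3 ran from -0.44 to 0.67 with each sample left out. This difference changed sign without CON sample 1 or 3 or RA sample 1 or 2. For Stra6 to Rbp4 the difference ran from -0.43 to 0.0236, changing sign without CON sample 2. The log2 fold change of Crabp1 ran from -0.25 to 0.0338, positive without CON sample 2 (0.0212) or RA sample 2 (0.0338), and that of Fabp5 from -0.0254 without CON sample 1 to 0.0588. The cause of these changes of sign was not tested. With the replicate block there were 684 DEGs, with 1, 3 and 3 in the 3 lists, Rarb not being called (log2 fold change 1.46). Deviations of same-numbered samples correlated at -0.01 to 0.09, and not every sample correlated best with its own number. With 3 samples a group these values cannot show whether same-numbered samples shared an animal or a culture day. Crabp1, Stra6, Aldh1a2 and Aldh1a3, with 6 to 30 counts per sample, are limited by depth, and 3 samples a group cannot give an exact p below 0.1.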

Other observations

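Several genes of the retinoid pathway were at or near 0 in these cultures and were not tested. Lrat, which esterifies retinol for storage, had 0, 1 and 0 counts in CON and 0, 0 and 3 in RA. The retinol binding protein gene Rbp2 had 2 counts in RA sample 1 and none elsewhere, and Rbp7 had 2 counts in RA sample 2 and none elsewhere. Aldh1a7 had 3, 0 and 0 counts in CON and 7, 4 and 2 in RA.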
